A study of Mus musculus with 12 samples.

Results

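The genes described here are 10 genes of muscle atrophy and growth signalling, chosen as a list of symbols from the 55885 genes with a deposited value in mouse hearts: Fbxo32, Trim63, Foxo1, Foxo3, Mstn, Klf15, Ddit4, Eif4ebp1, Igf1 and Irs2. RNA was sequenced from the hearts of 12 male mice, 8 weeks old, in 4 groups of 3 hearts. The Saline and CDDP groups were wild-type C57BL/6 mice (C57BL/6J in the study's methods), and the STING-/- and STING-/-+CDDP groups were Tmem173-/- mice of the same strain, which lack a working copy of the gene for STING, a sensor protein that starts the interferon response to DNA in the cytosol. The CDDP and STING-/-+CDDP mice received cisplatin, a platinum drug against tumours, at 6 mg/kg into the peritoneum on days 1, 8 and 15, and the hearts were taken on day 22. The mice of the other groups are called untreated in the labels and were given saline according to the study's methods. The knockout is in every cell of the mouse, and nothing in the labels or methods says that hearts were pooled. Equal heart numbers do not mark the same mouse.

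Muscle mass, in the heart as in skeletal muscle, is set by the balance between protein synthesis and protein breakdown. Insulin and insulin-like growth factor signal through the IRS adaptors, PI3K and AKT to the kinase complex mTORC1, which promotes translation, and AKT keeps the FoxO transcription factors out of the nucleus. When this signal falls, FoxO factors enter the nucleus and switch on the ubiquitin ligases atrogin-1 (Fbxo32) and MuRF1 (Trim63), which mark muscle proteins for the proteasome. Glucocorticoids and myostatin act on the same balance from the side of breakdown.

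Expression was given as TPM, reads per length of gene scaled to the same total in every heart, so that levels can be compared between genes. TPM holds no read numbers, so depth is unknown here. A heart had 19680 to 21024 genes above 0, and mitochondrially encoded genes held 18.8% to 27.6% of the TPM. Of the 10 genes, 9 passed the filter of at least 1 TPM in at least 3 hearts and were tested, together with all 13815 genes that passed it. Mstn did not pass. Differences are given on the log2(TPM + 1) scale, which understates the change of genes at low TPM, with adjusted p-values from limma with Benjamini-Hochberg adjustment over all genes tested. A gene is said to have risen or fallen where this adjusted p was under 0.05.

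The 6 cardiomyocyte markers summed to between 21570 and 44510 TPM in every heart. The skeletal muscle markers Myh4, Myod1 and Myog were at 0 in 10, 10 and 11 of the 12 hearts, and the 11 skeletal muscle markers summed to between 5.04 and 42.8 TPM. The TPM of the targeted gene, Sting1, was 2.87 to 5.96 in the STING-/- group and 3.37 to 4.67 in the STING-/-+CDDP hearts, against 6.50 to 12.3 with saline and 5.62 to 22.1 in the CDDP hearts. It was thus above 0 in every heart of STING-/- mice, and each of these groups lay below the wild-type group of the same treatment without overlap. A value per gene cannot show which transcript these reads come from. CDDP heart 1 stood apart in its neutrophil markers and in its correlation over all groups, less so within its group. Its 7 neutrophil markers summed to 1093 TPM against 43.3 and 26.0 in the other CDDP hearts. Its median correlation with the other hearts of all groups was the lowest, 0.910. These hearts differ in treatment, and the part of treatment in this value was not tested. Within the CDDP group its median correlation was also the lowest, 0.9497, but that of Saline heart 2 within the Saline group was lower, 0.9432. For the 10 genes, calls that were gained or lost without CDDP heart 1 are given beside the result. The 5 red blood cell markers, among them the globin genes Hba-a1 and Hbb-bs, fell in the CDDP hearts, with sums of 4146 to 9317 TPM with saline and 41.95 to 1271 in the CDDP hearts. They were also low in the hearts of STING-/- mice, at 263.7 to 1465 TPM without cisplatin and 81.93 to 311.1 with it, and Alas2, the heme synthesis enzyme of red cells, was at 0 in 1 of the 12 hearts. The part of red cells in the results was not tested. The atrial markers summed to between 310.2 and 39130 TPM in single hearts, with Saline heart 2 and CDDP heart 3 the highest of their groups.

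Compared with the Saline hearts, Irs2 and Fbxo32 rose most in the CDDP hearts, Eif4ebp1 rose less, and Igf1 fell. The other 5 tested genes did not pass, and for Trim63, Foxo3, Klf15 and Ddit4 the result depended on which heart was left out. In CDDP heart 1 their values lay within the range of the Saline hearts, and without it all 4 passed. Of the 9 tested genes, 4 passed (3 higher and 1 lower), where 18.9% of all genes tested passed in this comparison. At an unadjusted p under 0.05 it was 8 of the 9, against 33.9% of all genes tested. Without CDDP heart 1, 6 of the 9 passed, all of them higher, where 15.7% of all genes then tested passed. With all hearts, 4 of the 9 did not overlap between the CDDP and Saline groups, where 32% of all genes tested did not. The genes were chosen with earlier results of these data known, so these counts do not test the list against all genes. In STING-/- mice none of the 9 passed between the STING-/-+CDDP and STING-/- hearts, while Irs2 was lower in the STING-/-+CDDP hearts than in the CDDP hearts.

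**Figure D1:**
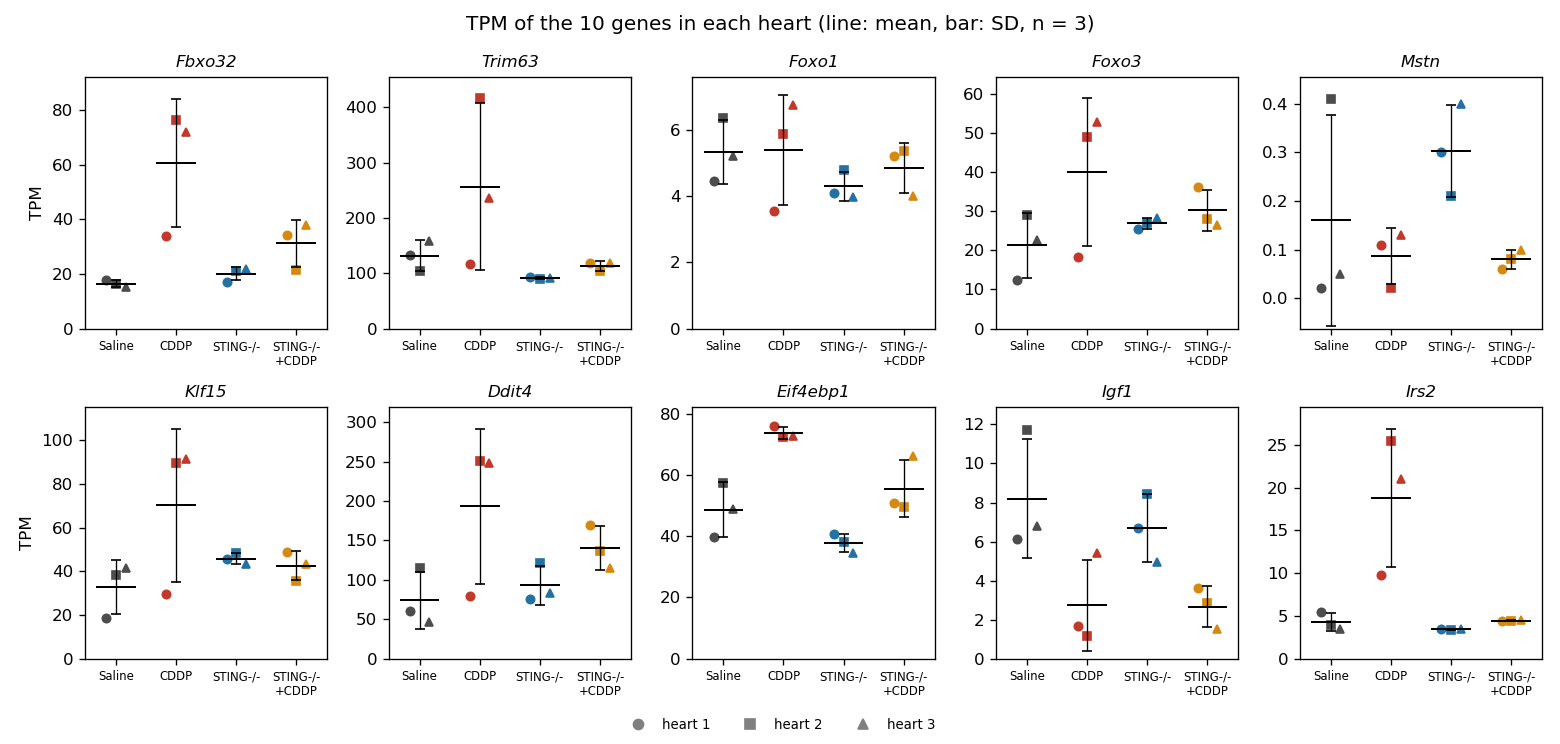
TPM of each of the 10 genes (vertical axes, each from 0 or below) in the 12 hearts, by group, with circles, squares and triangles for hearts 1, 2 and 3, a line for the mean and a bar for the SD of 3 hearts. Fbxo32 and Irs2 were higher in all 3 CDDP hearts than in any Saline heart, and in CDDP heart 1 the TPM of Trim63, Foxo3, Klf15 and Ddit4 lay within the range of the Saline hearts.

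Of the 10 genes, 8 matched the table of RefSeq upstream sequences (GRCm38.p6), and Fbxo32 and Eif4ebp1 did not. In the 300 bases from 250 before to 50 after the RefSeq start site, 4 motifs were searched on both strands: the FoxO site GTAAACA, the glucocorticoid receptor site made of AGAACA and TGTTCT spaced by 3 bases, the ATF4 site TGATGNAA and the E-box CACGTG. Matches were found in Trim63, Klf15 and Irs2, whose upstream 250 bases are shown for that reason 5′ to 3′ on the strand of the gene, with matches in capitals. The windows are chr4:134314870-134315119 on the plus strand for Trim63, chr6:90462326-90462575 on the plus strand for Klf15 and chr8:11008930-11009179 on the minus strand for Irs2.
Trim63: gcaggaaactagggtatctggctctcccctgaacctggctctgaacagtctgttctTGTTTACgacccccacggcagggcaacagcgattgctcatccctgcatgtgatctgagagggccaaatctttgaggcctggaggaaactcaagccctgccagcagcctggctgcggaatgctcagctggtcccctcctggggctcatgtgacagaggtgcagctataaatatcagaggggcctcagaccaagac
Klf15: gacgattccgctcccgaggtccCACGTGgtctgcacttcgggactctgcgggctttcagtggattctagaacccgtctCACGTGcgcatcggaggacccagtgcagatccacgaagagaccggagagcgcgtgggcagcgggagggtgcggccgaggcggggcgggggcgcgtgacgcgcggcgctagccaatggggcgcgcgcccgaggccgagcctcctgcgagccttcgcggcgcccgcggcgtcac
Irs2: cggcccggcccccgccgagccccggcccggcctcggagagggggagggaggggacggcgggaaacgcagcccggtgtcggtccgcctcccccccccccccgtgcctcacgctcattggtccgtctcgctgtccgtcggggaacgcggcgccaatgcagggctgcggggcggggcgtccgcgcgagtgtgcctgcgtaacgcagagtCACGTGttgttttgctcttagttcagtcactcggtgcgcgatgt
The capitals in Trim63 are a FoxO site on the opposite strand, 194 to 188 bases before the start site, a motif found in 3.65% of the 32851 promoters of the table. Klf15 holds the E-box 228 to 223 and 172 to 167 bases before its start, and again across the start site from 3 bases before it, where it is not in the printed stretch. Irs2 holds 1 E-box, 44 to 39 bases before its RefSeq start, and 7.15% of all promoters hold one. The span of Irs2 given below comes from another annotation, GENCODE, and begins at 11008458 on the minus strand, so the printed window does not adjoin it. None of the 8 windows held the glucocorticoid receptor site or the ATF4 site, which are in 0.00913% and 3.97% of all promoters. With so few promoters holding the exact glucocorticoid receptor site, its absence says little. In Trim63 the letters TGTTCT stand directly before the FoxO site, 3 bases after TGAACA, which is close to the searched AGAACA but no match. A match is a description of the letters, and none of these data measured the binding of a factor.

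Fbxo32 (chr15:58175879-58214932, minus strand, GRCm38) encodes atrogin-1, the F-box protein through which an SCF ubiquitin ligase recognises its muscle substrates. Its TPM was 17.7, 16.4 and 15.3 with saline and 33.7, 76.4 and 72.1 in the CDDP hearts. The groups did not overlap, and CDDP heart 1 was the lowest of its group. The mean was 16.5 ± 1.17 TPM (SD, n = 3) with saline and 60.8 ± 23.5 (SD, n = 3) with CDDP, and the log2 difference was 1.74 (standard error 0.29, adjusted p = 0.00293 by limma). Fbxo32 passed in each of the other settings and with any 1 heart left out, with log2 differences between 1.53 and 2.11 when a heart was left out. The STING-/- hearts were at 17.2, 21.3 and 21.8 TPM and the STING-/-+CDDP hearts at 34.2, 21.5 and 38.1. STING-/-+CDDP heart 2 lay within the range of the STING-/- hearts and the other pair lay above it. The difference, 0.58, had a 95% confidence interval from -0.05 to 1.22 and an adjusted p of 0.414. From the CDDP to the STING-/-+CDDP hearts the log2 difference of Fbxo32 was -0.89 (adjusted p = 0.133), and without CDDP heart 1 it was -1.26 (adjusted p = 0.0420).

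Trim63 (chr4:134315120-134329629, plus strand), whose upstream stretch holds the FoxO site, encodes MuRF1, a RING-finger ubiquitin ligase of the sarcomere. Its TPM was 133, 104 and 159 with saline and 117, 417 and 236 in the CDDP hearts. CDDP heart 1 lay between the Saline hearts, and the other CDDP hearts lay above all of them. The log2 difference of 0.79 (standard error 0.34) had an adjusted p of 0.127, and without CDDP heart 1 it was 1.26 with an adjusted p of 0.00704. Without CDDP heart 2, in which Trim63 was highest, it was 0.35 (adjusted p = 0.380). The STING-/- hearts were at 94.1, 90.0 and 91.6 TPM, all below the Saline hearts (log2 difference -0.50, adjusted p = 1). The STING-/-+CDDP hearts, at 118, 103 and 119 TPM, were all above the STING-/- hearts, though the log2 difference was 0.30 with an adjusted p of 0.751. Against the CDDP hearts the log2 difference was -0.99 (adjusted p = 0.149), and it passed only without CDDP heart 1 (-1.46, adjusted p = 0.0384). The ratio of Fbxo32 to Trim63 in TPM was 0.0964 to 0.159 with saline and 0.183 to 0.306 in the CDDP hearts, so the share of atrogin-1 transcripts was higher in each CDDP heart. It was 0.183 to 0.238 in the STING-/- and 0.208 to 0.319 in the STING-/-+CDDP hearts, which overlap.

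The FoxO factors Foxo1 and Foxo3, which switch on both ligases, are controlled mainly by phosphorylation and location, so that their RNA is not a measure of their activity. Foxo1 (chr3:52268336-52353221, plus strand) was at 4.44, 6.36 and 5.21 TPM with saline and 3.55, 5.88 and 6.75 in the CDDP hearts. The ranges overlapped and the log2 difference of Foxo1 was -0.01 (95% confidence interval -0.48 to 0.45, adjusted p = 0.977), turning to 0.22 without CDDP heart 1 and to 0.10 without Saline heart 2. Its TPM was 4.10, 4.79 and 3.97 in the STING-/- group and 5.21, 5.36 and 3.99 in the STING-/-+CDDP hearts, again with overlap.

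Foxo3 (chr10:42181841-42276755, minus strand) was at 12.4, 29.0 and 22.6 TPM with saline and 18.3, 49.0 and 52.8 in the CDDP hearts. CDDP heart 1 lay inside the Saline range and the others above it. The log2 difference was 0.82 (standard error 0.37, adjusted p = 0.143), and without CDDP heart 1 it was 1.30 with an adjusted p of 0.0137. Without Saline heart 1, the lowest, the difference of Foxo3 was 0.49 (adjusted p = 0.437). The STING-/- hearts were at 25.6, 27.0 and 28.3 TPM and the STING-/-+CDDP hearts at 36.1, 28.1 and 26.5, with a log2 difference of 0.15 (95% confidence interval -0.66 to 0.96). Foxo3 was the more abundant of the 2 factors in every heart, by 2.79 to 4.55 times with saline and 5.15 to 8.34 times in the CDDP hearts. In the hearts of STING-/- mice the same ratio was 5.63 to 7.13 without cisplatin and 5.24 to 6.94 with it.

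Klf15 (chr6:90462576-90475238, plus strand), a zinc-finger factor that glucocorticoids induce and that promotes the breakdown of branched-chain amino acids in muscle, had a pattern close to that of Foxo3. Its TPM was 18.8, 38.5 and 41.7 with saline and 29.6, 89.3 and 91.5 in the CDDP hearts. CDDP heart 1 again lay inside the Saline range, while in the other pair Klf15 was above every Saline heart. The log2 difference was 0.98 (standard error 0.39, adjusted p = 0.103), and 1.51 without CDDP heart 1 (adjusted p = 0.00755), but 0.63 without Saline heart 1 (adjusted p = 0.337). The STING-/- hearts, at 45.7, 48.2 and 43.3 TPM, were all above the Saline hearts without passing (log2 difference 0.54, adjusted p = 1). The STING-/-+CDDP hearts were at 48.7, 35.6 and 43.4 TPM and overlapped them, with a log2 difference of Klf15 of -0.11 (95% confidence interval -0.97 to 0.75), and 0.03 after scaling by the median of ratios.

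Mstn (chr1:53061640-53068079, plus strand) encodes myostatin, the secreted inhibitor of muscle growth that is made mostly by skeletal muscle. It was the least expressed of the 10 genes and too low to be tested with the others. Mstn was at 0.02, 0.41 and 0.05 TPM with saline and at 0.11, 0.02 and 0.13 with CDDP. In STING-/- mice the hearts were at 0.30, 0.21 and 0.40 TPM without cisplatin and at 0.06, 0.08 and 0.10 with it. Only between the STING-/-+CDDP and STING-/- hearts did the groups not overlap, with the cisplatin hearts lower. The exact permutation test (two-sided) gave p = 0.1 there, the smallest that 3 hearts against 3 can give, p = 0.9 both between CDDP and Saline and between STING-/-+CDDP and CDDP, and p = 0.4 between STING-/- and Saline. Saline heart 2, with the highest TPM of Mstn, also had the highest sums of the atrial and of the skeletal muscle markers (42.8 TPM against 6.13 and 6.03 in the other Saline hearts), and their part in the value was not tested.

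Igf1 (chr10:87858265-87937042, plus strand) encodes insulin-like growth factor 1, the growth signal that opposes atrophy. Its TPM was 6.11, 11.7 and 6.79 with saline and 1.65, 1.14 and 5.40 in the CDDP hearts. All CDDP hearts were below all Saline hearts, with CDDP heart 3 close to them. The mean was 8.20 ± 3.05 TPM (SD, n = 3) with saline and 2.73 ± 2.33 (SD, n = 3) with CDDP, and Igf1 fell by 1.43 on the log2 scale (standard error 0.39, adjusted p = 0.0284 by limma). This call was a narrow one. The adjusted p of Igf1 was 0.0507, 0.0773 and 0.0535 without Saline heart 1, 2 or 3, 0.0794 without CDDP heart 1 and 0.0849 without CDDP heart 2, and it was 0.0717 without the filter and 0.0887 with only these 2 groups in the model. In the STING-/- hearts Igf1 was at 6.70, 8.46 and 4.93 TPM, and in the STING-/-+CDDP hearts at 3.61, 2.84 and 1.52, without overlap. This difference of -1.09 on the log2 scale did not pass (adjusted p = 0.245), and its interval, -1.96 to -0.23, overlaps that in wild-type mice, -2.29 to -0.56. The difference between the genotypes in the change of Igf1 with cisplatin was 0.33 (95% confidence interval -0.89 to 1.55, adjusted p = 0.844).

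Macrophages of the heart also make Igf1, and the sums of the macrophage markers were lower, as Igf1 was, in both cisplatin groups. Within groups the 2 ran alike in some hearts and not in others. In the CDDP group heart 2 had the lowest Igf1 and the highest macrophage sum. In the Saline group heart 2 was the highest and heart 1 the lowest in both. Heart 3 was the lowest in both in the STING-/- and in the STING-/-+CDDP group, while the highest in each differed. The 9 markers summed to 478.7 to 685.3 TPM in the Saline hearts, 165.2 to 312.2 in the CDDP hearts, 481.5 to 703 in the STING-/- group and 192.9 to 395.1 in the STING-/-+CDDP hearts, and 6 of the 9 fell between the Saline and CDDP hearts. Of the 7 fibroblast markers, 4 fell as well, and the median log2 difference over the 7 was -1.94. Their sums overlapped (827.2 to 1992 TPM with saline and 986.6 to 2100 with CDDP). The largest part of these sums was Dcn alone, at 515.7 to 1967 TPM in single hearts. No marker of either kind was at 0 in any heart. In each group the heart with the highest Igf1 also had the highest sum of the atrial markers. These were Saline heart 2 (39130 TPM), CDDP heart 3 (14630), STING-/- heart 2 (12850) and STING-/-+CDDP heart 1 (9025). The sum of the fibroblast markers was also the highest of its group in Saline heart 2 (1992 TPM), CDDP heart 3 (2100) and STING-/- heart 2 (1458). It was not in STING-/-+CDDP heart 1 (1334 TPM, against 1549 in heart 2). The part of macrophages, fibroblasts and atrial tissue in the fall of Igf1 was not tested. In RNA of whole tissue fewer cells of a type and less RNA per cell cannot be told apart.

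Irs2 (chr8:10984681-11008458, minus strand) encodes insulin receptor substrate 2, the adaptor that passes the signal of the insulin and IGF receptors to PI3K. Its TPM was 5.46, 3.91 and 3.43 with saline and 9.81, 25.5 and 21.0 in the CDDP hearts. The groups did not overlap, with CDDP heart 1 nearest to the Saline hearts. The mean was 4.27 ± 1.06 TPM (SD, n = 3) with saline and 18.7 ± 8.06 (SD, n = 3) with CDDP, and the log2 difference of 1.83 (standard error 0.28, adjusted p = 0.00189 by limma) was the largest of the 9 tested genes. It passed in each of the other settings and with any 1 heart left out. The STING-/- hearts were at 3.41, 3.33 and 3.50 TPM and the STING-/-+CDDP hearts at 4.43, 4.36 and 4.51. These groups did not overlap either, but their means, 3.41 ± 0.0851 and 4.43 ± 0.0751 TPM (SD, n = 3 each), lay close together, and Irs2 differed by 0.30 on the log2 scale (95% confidence interval -0.31 to 0.91, adjusted p = 0.688). The balance between the IRS adaptors can be read as a ratio within each heart. The ratio of Irs2 to Irs1, the other main adaptor of the heart, was 1.30 to 1.55 with saline and 4.82 to 10.0 in the CDDP hearts, against 0.888 to 2.01 in the STING-/- and 3.07 to 3.64 in the STING-/-+CDDP hearts. This ratio moves with Irs1 as well as with Irs2. Its highest value, 10.0, was in CDDP heart 1, which had the lowest Irs2 of its group. In the STING-/-+CDDP hearts the ratio was above that of every Saline heart, though Irs2 itself lay within the Saline range.

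Ddit4 and Eif4ebp1 act on translation. Ddit4 (chr10:59949669-59951834, minus strand) encodes REDD1, a stress-induced protein that lowers mTORC1 activity. Its TPM was 60.3, 115 and 46.6 with saline and 79.95, 251 and 248 in the CDDP hearts. CDDP heart 1 was below Saline heart 2, and the other pair was above all Saline hearts. The log2 difference of 1.30 (standard error 0.43) just missed the threshold (adjusted p = 0.0548), and it passed with the median of ratios (0.0190 adjusted), without the mitochondrially encoded genes (0.0452 adjusted), without CDDP heart 1 (1.85, adjusted p = 0.00673) and without Saline heart 2 (1.67, adjusted p = 0.0222). With another heart left out the adjusted p of Ddit4 reached 0.169, and the lowest difference was 1.03. In STING-/- mice Ddit4 was at 75.1, 122 and 83.3 TPM without cisplatin and at 170, 137 and 114 with it, with overlap (log2 difference 0.60, 95% confidence interval -0.35 to 1.54).

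Eif4ebp1 (chr8:27260329-27276674, plus strand) encodes 4E-BP1, which binds the cap-binding factor eIF4E and holds back translation until mTORC1 phosphorylates it. Its TPM was 39.6, 57.5 and 48.9 with saline and 76.1, 72.5 and 72.6 in the CDDP hearts. The groups did not overlap, and the CDDP hearts lay close to each other, heart 1 included. The mean was 48.7 ± 8.95 TPM (SD, n = 3) with saline and 73.8 ± 2.05 (SD, n = 3) with CDDP, and Eif4ebp1 rose by 0.61 on the log2 scale (standard error 0.16, adjusted p = 0.0226 by limma). The call was lost without Saline heart 1 (0.47, adjusted p = 0.0980) and, with adjusted p of 0.0533 and 0.0515, without Saline heart 3 or CDDP heart 1, as well as with the median of ratios (0.0523 adjusted) and with only these 2 groups in the model (0.0818 adjusted). In STING-/- mice the hearts without cisplatin were at 40.6, 38.3 and 34.6 TPM and the STING-/-+CDDP hearts at 50.9, 49.5 and 66.2, again without overlap. Their log2 difference of 0.53 (95% confidence interval 0.18 to 0.88) did not pass (adjusted p = 0.149), and the difference between the genotypes in the change of Eif4ebp1 was -0.07 (95% confidence interval -0.57 to 0.42). Eif4e, the partner of 4E-BP1, moved the other way, from 50.5 to 59.1 TPM in the Saline hearts to 26.7 to 43.3 TPM in the CDDP hearts (log2 difference -0.64, adjusted p = 0.0254). The ratio of Eif4ebp1 to Eif4e was thus 0.722 to 1.14 with saline and 1.68 to 2.85 in the CDDP hearts. In the STING-/- group it was 0.686 to 0.712 and in the STING-/-+CDDP hearts 1.01 to 1.49. Whether the call of Eif4e holds with a heart left out or in another setting was not examined.

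**Figure D2:**
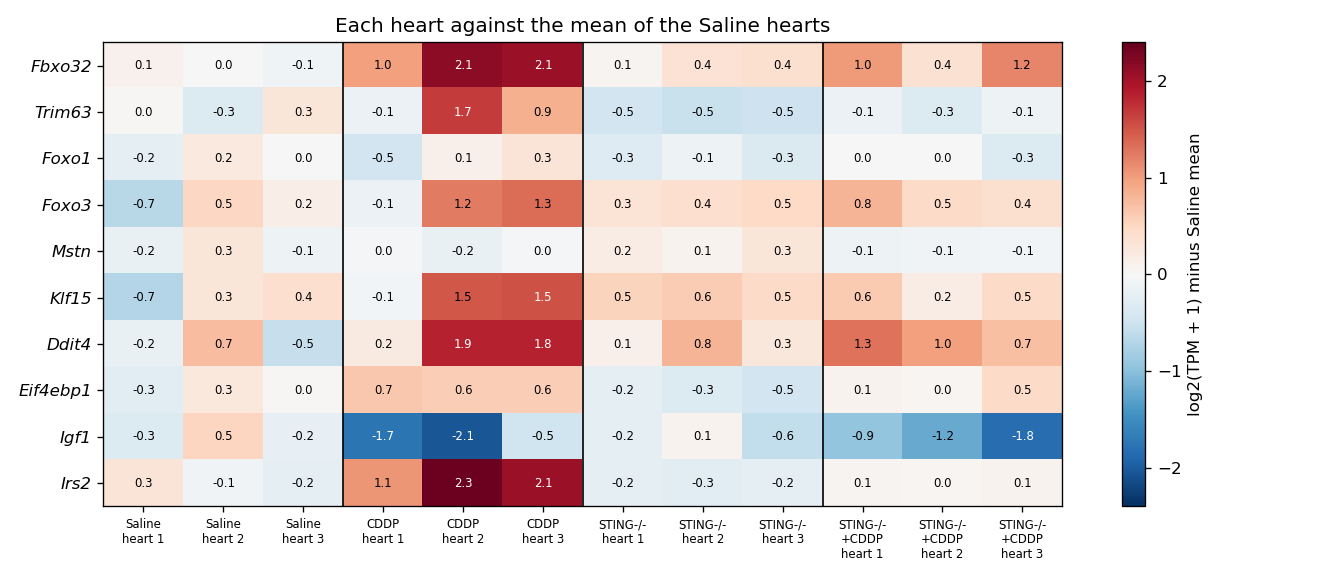
Difference of each heart (columns) from the mean of the Saline hearts for each of the 10 genes (rows), in log2(TPM + 1), with red for higher and blue for lower. CDDP hearts 2 and 3 had a median over the 10 genes of 1.37 and 1.1, and CDDP heart 1 of -0.06.

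The plot of single hearts against the Saline mean shows how the CDDP hearts differed among themselves. In CDDP heart 1 only 4 of the 10 genes were above the mean of the Saline hearts, and the median difference over the 10 genes was -0.06. In CDDP hearts 2 and 3 it was 8 of 10, with medians of 1.37 and 1.1. Fbxo32, Irs2, Eif4ebp1 and Ddit4 were the genes above the Saline mean in all 3 CDDP hearts. Among the STING-/-+CDDP hearts the medians were 0.07, 0.04 and 0.23, and among the STING-/- hearts -0.07, 0.08 and 0.03. The neutrophil markers were highest in CDDP heart 1, and their part in its lower median over the 10 genes was not tested.

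With cisplatin in STING-/- mice none of the genes passed. Of the 9 tested genes 0 passed limma's test between the STING-/-+CDDP and STING-/- hearts, where 0.934% of all genes tested passed. At an unadjusted p under 0.05 it was 2, Eif4ebp1 (higher) and Igf1 (lower), against 13.5% of all genes tested. Without overlap were 4, Trim63, Eif4ebp1 and Irs2 above and Igf1 below, when 24.2% of all genes tested did not overlap. The median log2 difference over the 9 genes was 0.30, against -0.11 for all genes tested. In wild-type mice the 9 genes had a median of 0.82 and all genes one of -0.003.

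The CDDP hearts also served for the comparison of STING-/-+CDDP with CDDP, so the 2 comparisons with CDDP share these hearts and their values are not independent. Irs2 alone passed here, lower in the STING-/-+CDDP hearts with a log2 difference of -1.76 (standard error 0.28, adjusted p = 0.0216 by limma), in the comparison in which 1.22% of all genes tested passed. The 3 STING-/-+CDDP hearts, 4.36 to 4.51 TPM, lay below the lowest CDDP heart, 9.81 TPM, and within the range of the Saline hearts, 3.43 to 5.46 TPM. The adjusted p of Irs2 rose to 0.0571 without the filter, to 0.0734 with only these 2 groups in the model, to 0.0617 without CDDP heart 3 and to between 0.0574 and 0.0945 without any 1 of the STING-/-+CDDP hearts, with the log2 difference between -2.15 and -1.50 whichever heart was left out. Eif4ebp1 was also lower without overlap (-0.42, adjusted p = 0.181). Of the 9 genes only these 2 did not overlap here, where 22.7% of all genes tested did not. At an unadjusted p under 0.05 it was 4 of the 9 genes, Fbxo32, Trim63, Eif4ebp1 and Irs2, all lower, against 19.8% of all genes tested. Without CDDP heart 1, 3 genes passed, namely Irs2, Fbxo32 and Trim63, where 0.416% of all genes passed.

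**Figure D3:**
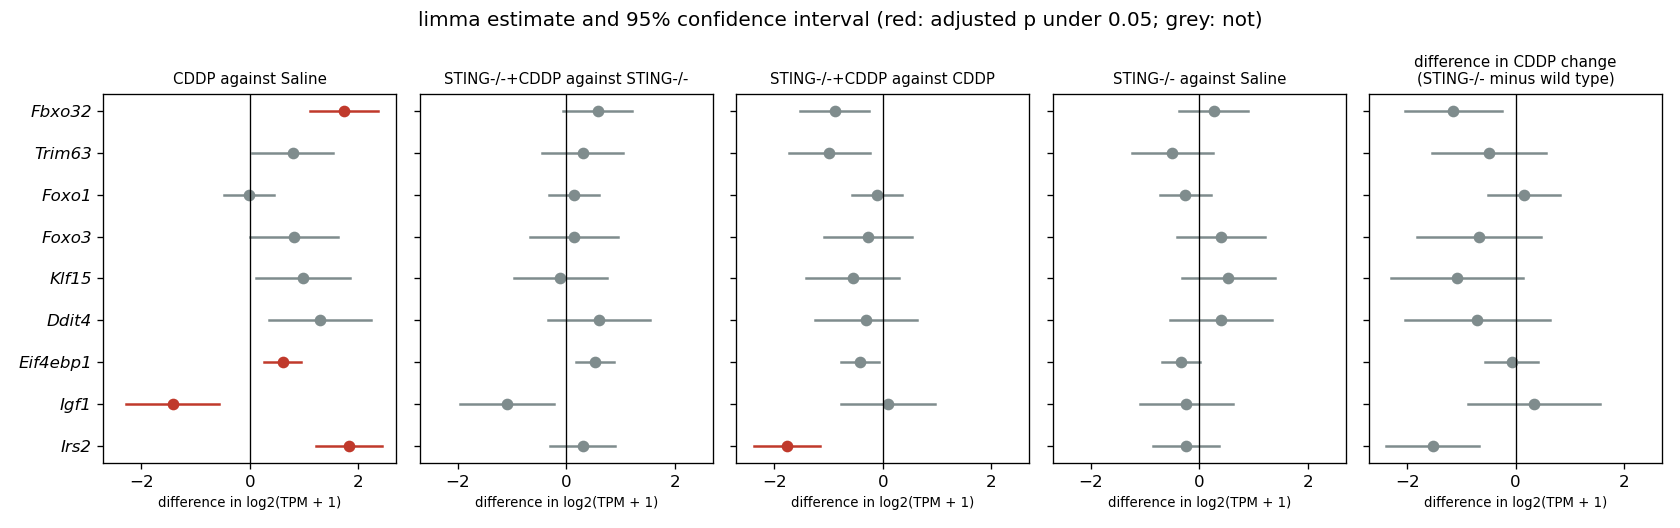
Estimated difference in log2(TPM + 1) (horizontal axes, points) with its 95% confidence interval (lines) for the 9 tested genes in the 5 comparisons, in red where the adjusted p was under 0.05. Fbxo32, Eif4ebp1, Igf1 and Irs2 are red for CDDP against Saline, Irs2 alone for STING-/-+CDDP against CDDP, and none in the other 3.

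The loss of STING without cisplatin changed none of the 9 genes past the threshold. Of all genes tested 0.0724% passed limma's test between the STING-/- and Saline hearts, and of the 9 genes 0 passed, also 0 at an unadjusted p under 0.05, where 3.69% of all genes lay. Their log2 differences lay between -0.50 for Trim63 and 0.54 for Klf15. These 2 of the 9 did not overlap between the groups, where 7.64% of all genes tested did not.

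The difference between the genotypes was also tested itself, as the change with cisplatin in STING-/- mice minus that in wild-type mice. It passed limma's test for 0 of the 9 genes and for 0.00724% of all genes tested. At an unadjusted p under 0.05, where 11.7% of all genes lay, were 2 of the 9, Irs2 (-1.53, standard error 0.39, adjusted p = 0.308) and Fbxo32 (-1.15, standard error 0.41, adjusted p = 0.366). The interval of Irs2 ran from -2.39 to -0.67, and without CDDP heart 1 the value was -1.91 with an adjusted p of 0.0452. For Klf15 it was -1.09 (95% confidence interval -2.31 to 0.13), for Trim63 -0.49 (-1.55 to 0.57) and for Foxo3 -0.67 (-1.82 to 0.47). These data thus do not tell whether these 3 genes change differently in the 2 genotypes.

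By mean level the order of the groups was CDDP, STING-/-+CDDP, STING-/- and Saline for Fbxo32 (60.8, 31.3, 20.1 and 16.5 TPM), Foxo3 (40.0, 30.2, 27.0 and 21.3 TPM) and Ddit4 (193, 140.4, 93.3 and 73.9 TPM), and for these 3 genes all neighbours in the order overlapped. For Irs2 it was CDDP, STING-/-+CDDP, Saline and STING-/- (18.7, 4.43, 4.27 and 3.41 TPM), and only the step from CDDP to STING-/-+CDDP was without overlap. Eif4ebp1 had the same order (73.8, 55.5, 48.7 and 37.8 TPM), with the first step without overlap but not past the threshold. Trim63 ran from CDDP over Saline and STING-/-+CDDP to STING-/- (256.6, 132.1, 113.6 and 91.9 TPM), Klf15 from CDDP over STING-/- and STING-/-+CDDP to Saline (70.1, 45.7, 42.6 and 33.0 TPM), and Igf1 from Saline over STING-/- and CDDP to STING-/-+CDDP (8.20, 6.70, 2.73 and 2.66 TPM). Of these steps only the last of Trim63 was without overlap. Foxo1 stayed between mean levels of 4.29 and 5.39 TPM in the 4 groups.

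The genes whose levels ran most alike over the 12 hearts were named by Pearson's r on log2(TPM + 1), as a description without a test, since the hearts share groups and treatment. For Fbxo32 they were the transcript 5430431A17Rik (r = 0.97), Rpap3 (0.95) and Lpl (0.95), the lipoprotein lipase, and for Irs2 they were N6amt1 (0.97), the proteasome subunit Psma6 (0.96) and Arhgef37 (0.96). Foxo3 was most like Cyp27a1 (0.96), Klf15 (0.95) and Pygo1 (0.95), and Klf15 was most like Foxo3 (0.95), Cth (0.92) and Pygo1 (0.91). The likeness of Foxo3 and Klf15 was also seen within groups, with r = 0.95 for the deviations of the hearts from their group means. By ranks their correlation over the 12 hearts was lower, 0.73, and r was 0.87 without the 2 hearts farthest from the median of Foxo3. For Trim63 they were Cdpf1 (0.93), Rnase1 (0.93) and Gm35212 (0.92), and without the 2 hearts farthest from the median of Trim63 the last had r = 0.13. Ddit4 was most like Rbl2 (0.98), Washc2 (0.97) and Hsbp1l1 (0.95), Foxo1 most like F8a (0.94), Mcoln1 (0.94) and Tysnd1 (0.93), Eif4ebp1 most like Tsacc (0.93), Rxylt1 (0.92) and Sdcbp2 (0.92), and Igf1 most like Yaf2 (0.97), St6gal1 (0.97) and Adamts2 (0.96).

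The other genes of these pathways were described from lists, with the 10 genes left out. Of 30 tested genes for ubiquitin ligases, proteasome, calpains, autophagy and related atrophy genes, 11 rose and 2 fell between the Saline and CDDP hearts, with a median log2 difference of 0.26 against -0.003 for all genes. Of all genes tested, 18.9% passed in this comparison. The largest changes were those of Cdkn1a (2.17, adjusted p = 8.02e-04), the p53 target p21, of Ctsl (2.02, adjusted p = 0.00228), the lysosomal protease cathepsin L, and of Bnip3 (1.93, adjusted p = 0.00248), a mitophagy receptor. Their TPM was 32.8 to 65.8, 129.9 to 245.4 and 95.4 to 176 in the Saline hearts, and 195.9 to 232.1, 439 to 1079 and 315.9 to 788.8 in the CDDP hearts, without overlap. These 3 are not ubiquitin ligases. Of the ligases in the list, Fbxo31, Cblb and Trim54 (MuRF3) rose and Trim55 (MuRF2) fell. The falls in the list were narrow calls, since 0 of the 30 fell without Saline heart 1, CDDP heart 1 or CDDP heart 2, and 0 with only these 2 groups in the model. In STING-/- mice 2 of the 30 passed, both higher, where 0.934% of all genes tested passed. They were Map1lc3b, the autophagosome protein LC3B, at 0.94 (adjusted p = 0.0217) and Cdkn1a at 1.72 (adjusted p = 0.0156). Between the STING-/-+CDDP and CDDP hearts 2 of the 30 fell, where 1.22% of all genes tested passed. They were the ligase Cblb, by 0.96 (adjusted p = 0.0294), and the calpain inhibitor Cast, by 0.76 on the log2 scale (adjusted p = 0.0329). Whether these 2 calls hold with a heart left out was not examined.

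Where 18.9% of all genes tested passed between the CDDP and Saline hearts, the share was 37.5% in the glucocorticoid list. This list held 16 tested genes, for the glucocorticoid receptor, genes it induces and amino acid catabolism. With CDDP in wild-type mice 6 of them rose and 0 fell, with a median of 0.77. Among them were Fkbp5 (2.55, adjusted p = 0.0279), a chaperone of the glucocorticoid receptor, Hsd11b1 (2.25, adjusted p = 2.26e-04), the enzyme that makes active glucocorticoid inside cells, and Cebpd (1.73, adjusted p = 0.0168). Fkbp5 was at 2.76, 39.7 and 34.3 TPM with saline and 72.1, 107 and 137 in the CDDP hearts, with Saline heart 1 far below the other Saline hearts. Without that heart the log2 difference of Fkbp5 was 1.44, and Fkbp5 passed with 10 of the 12 hearts left out in turn, where Hsd11b1 passed with all 12 (2.12 to 2.45) and Cebpd with 9. The same heart was the lowest of all 12 for Klf15 and Foxo3. Hsd11b1 was at 15.7 to 25.5 TPM in the Saline hearts, 82.3 to 105.5 in the CDDP hearts, 14.01 to 22.2 in the STING-/- group and 49.5 to 57.3 in the STING-/-+CDDP hearts, and it alone of the list also passed in STING-/- mice (1.55, adjusted p = 0.00753). The count of 6 was 1 with only these 2 groups in the model, where 913 of the 13087 genes then tested passed. It was 9 without CDDP heart 1, where 15.7% of all genes then tested passed.

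The lists around the insulin receptor and mTOR moved in both directions. Of 31 tested genes for insulin and IGF receptors, adaptors and PI3K-AKT, 1 rose and 2 fell with CDDP in wild-type mice (median 0.14): the insulin receptor Insr (0.82, adjusted p = 0.0139), the binding protein Igfbp7 (-1.25, adjusted p = 0.03999) and the receptor adaptor Grb10 (-0.91, adjusted p = 0.00791). The call of Igfbp7 held with 6 of the 12 hearts left out in turn and in 4 of the 7 other settings, and its adjusted p was 0.0726 without CDDP heart 1. Insr was at 12.5 to 14.7 TPM with saline and 18.0 to 32.5 in the CDDP hearts. Of 30 tested mTOR genes 4 rose and 4 fell (median -0.05), among them Sesn2 (1.25, adjusted p = 0.00658) and Ulk1 (0.84, adjusted p = 0.00540), a stress-induced inhibitor of mTORC1 and a kinase that starts autophagy, and Rptor (-0.97, adjusted p = 0.00459), which encodes the mTORC1 subunit Raptor. Without CDDP heart 1, 8 of the mTOR genes rose and 1 fell, where 15.7% of all genes then tested passed. Of 12 tested FoxO factors and regulators 2 rose, the deacetylase Sirt1 (1.13, adjusted p = 0.00476) and the kinase Sgk1 (0.87, adjusted p = 0.0450). Sirt1 passed with any 1 heart left out, while Sgk1 passed with 2 of the 12 left out and was at 0.54 (adjusted p = 0.121) without CDDP heart 2. Of 18 tested genes of myostatin and activin signalling 1 rose, Wfikkn2 (0.91, adjusted p = 0.0481), which encodes an inhibitor of myostatin and was at 1.18 to 4.05 TPM with saline and 3.44 to 5.84 with CDDP. Wfikkn2 passed with 2 of the 12 hearts left out in turn, with a log2 difference of 0.65 to 1.26 over all 12. The shares of 16.7% for the FoxO list, 9.68% for the insulin list and 5.56% for the myostatin list lay below the 18.9% of all genes. That of the mTOR list, 26.7%, lay above it. In STING-/- mice 0 genes of these 4 lists passed limma's test, and at an unadjusted p under 0.05 it was 3 of the insulin, 4 of the mTOR, 2 of the FoxO and 2 of the myostatin list, against 13.5% of all genes. Between the STING-/- and Saline hearts 0 genes of the 6 lists passed, with 1 mTOR and 1 glucocorticoid gene at an unadjusted p under 0.05, against 3.69% of all genes. For the difference between the genotypes 0 genes of the 6 lists passed, with 7 of the ligase and atrophy list, 4 of the mTOR list and 3 of the glucocorticoid list at an unadjusted p under 0.05, and 1, 1 and 0 of the FoxO, insulin and myostatin lists, where 11.7% of all genes lay.

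**Figure D4:**
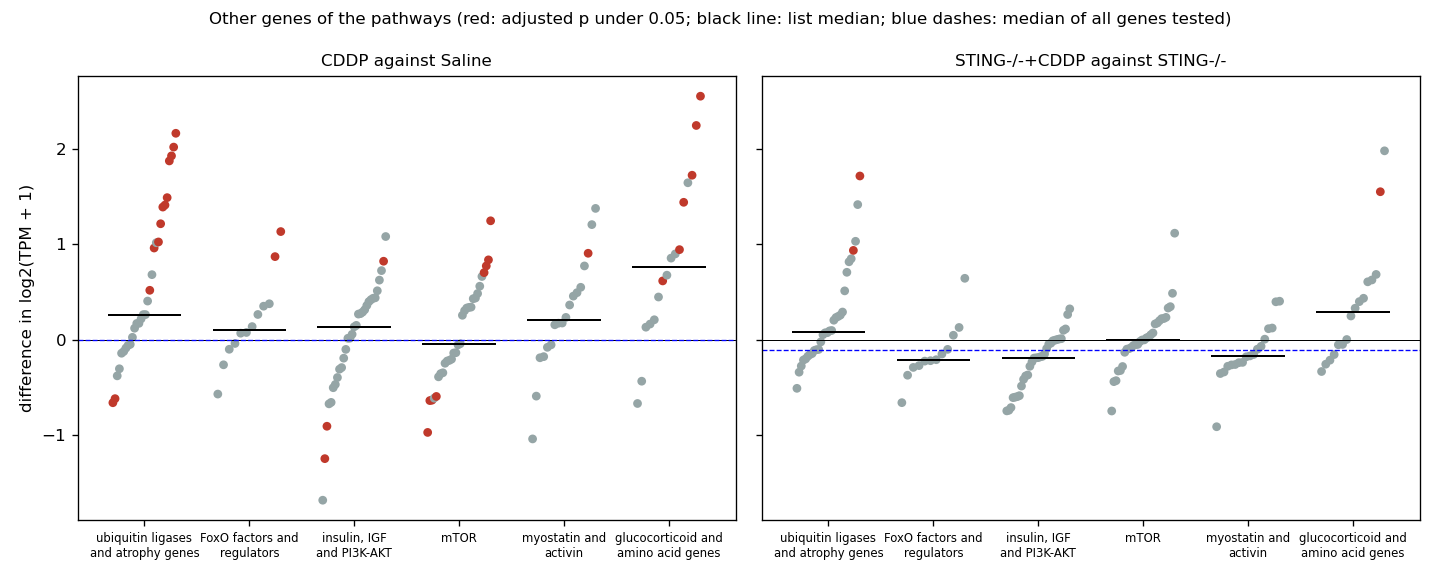
Difference in log2(TPM + 1) with cisplatin (vertical axis) for the tested genes of 6 pathway lists in wild-type mice (left) and STING-/- mice (right), with red points where the adjusted p was under 0.05, a black line at the median of the list and blue dashes at the median of all genes tested. In wild-type mice 11 genes of the ubiquitin ligase and atrophy list rose and 2 fell, and in STING-/- mice 2 rose.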

How the data were processed

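RNA of 12 hearts was sequenced, 3 in each of 4 groups, assigned by the labels' genotype and treatment. The authors deposited TPM for 55885 genes and the length of each gene, together with group means that were not used. The submitters' processing notes name fastp, HISAT, RSEM and GRCm38.p5, without versions. Whether the counting used strand is not given in the sources used here. Fbxo32, Foxo1, Igf1 and Irs2 overlap genes on the opposite strand, each with a mean of at most 0.24 TPM. Positions came from GENCODE M21 (GRCm38) and upstream sequences from RefSeq (GRCm38.p6).

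Values were transformed to log2(TPM + 1). Genes reaching a TPM of 1 in 3 or more hearts, 13815 in all, were fitted with limma 3.58.1 in R 4.3.3 (eBayes with a trend), in a model of the 4 groups with 8 residual degrees of freedom and 5 contrasts. Tests were two-sided with Benjamini-Hochberg adjustment and a threshold of 0.05, and the fit was tested on simulated data. The median standard error of a difference between groups was 0.216 and depth per heart is unknown. Mstn was compared with exact permutation tests.

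The 10 genes and the pathway lists were chosen with earlier results of these data known. The text names all 10 genes, up to 3 genes of each list that passed with the largest change between CDDP and Saline, and for each tested gene the 3 most alike. Fbxo31, Cblb, Trim54, Trim55, Map1lc3b, Cast, Eif4e and Irs1 were named after their values were seen. Hearts with the same number did not deviate together (18 pairs, of which 4 had a correlation over 0.1, range -0.33 to 0.26). Alternative settings were no filter, a pseudocount of 0.1, median-of-ratios scaling, TPM rescaled without the 37 mitochondrially encoded genes, eBayes without a trend, only the groups compared, the replicate number as a block and each heart left out. The list counts under these settings were added after seeing the data. Python 3.11.15 and matplotlib 3.10.9 made the figures.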

Additional observations from a re-analysis of the deposited data

How the results depend on the processing

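Between the CDDP and Saline hearts 4 of the 9 genes passed. With only the groups compared it was 2 (Fbxo32 and Irs2), and with a heart left out 2 (without Saline heart 1 or 3) to 6 (without CDDP heart 1). For STING-/-+CDDP against CDDP, Irs2, the 1 gene that passed, was lost (0 genes) without the filter and with only the groups compared, and the count was 0 to 3 with a heart left out. For the difference between genotypes it was 0 to 1. Fitted with the replicate block, the count between CDDP and Saline was again 4, with Ddit4 gained (adjusted p = 0.0464 by limma) and Igf1 lost (0.0520), and the block changed no other call of the 10 genes. It would pair different mice. Scaling by the median of ratios moved the median of all genes by 0.115 between STING-/-+CDDP and STING-/- and by 0.105 for the difference between genotypes.

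The signs that turned belonged to differences that did not pass. With the median of ratios, Klf15 came to 0.025 (STING-/-+CDDP against STING-/-), Foxo1 to 0.0030 (STING-/-+CDDP against CDDP) and Eif4ebp1 to 0.051 (difference between genotypes). With a heart left out the log2 difference of Foxo1 ran from -0.17 to 0.22 (CDDP against Saline), -0.33 to 0.057 (STING-/-+CDDP against CDDP) and -0.074 to 0.31 (difference between genotypes). That of Igf1 ran from -0.22 to 0.57 (STING-/-+CDDP against CDDP) and -0.40 to 0.023 (STING-/- against Saline), that of Klf15 from -0.21 to 0.0088 (STING-/-+CDDP against STING-/-) and that of Eif4ebp1 from -0.20 to 0.065 (difference between genotypes). The cause was not tested. Over the settings and hearts left out, the genes that rose between CDDP and Saline numbered 9 to 13 in the ligase and atrophy list (11), 1 to 9 in the glucocorticoid list (6), 2 to 9 in the mTOR list (4), 0 to 3 in the insulin list (1), 1 to 3 in the FoxO list (2) and 0 to 2 in the myostatin list (1), and those that fell numbered 0 to 2 (2), 0 to 1 (0), 1 to 4 (4), 0 to 5 (2), 0 to 1 (0) and 0 to 1 (0). All genes tested that passed were 2610 between CDDP and Saline (913 to 3810 over the settings, 1241 to 2559 with a heart left out), 129 (46 to 349, and 18 to 204) between STING-/-+CDDP and STING-/-, 168 (12 to 651, and 11 to 380) between STING-/-+CDDP and CDDP, 10 (4 to 11, and 3 to 14) between STING-/- and Saline, and 1 (1 to 3, and 0 to 12) for the difference. TPM without read counts limits how low a level can be compared, as for Mstn.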
